A study of Mus musculus with 93 samples.

Results

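The transcripts of 5 genes that carry or take up lipoprotein lipid, clusterin (Clu), apolipoprotein E (Apoe), scavenger receptor class B type 1 (Scarb1), apolipoprotein E receptor 2 (Lrp8) and the very low density lipoprotein receptor (Vldlr), were followed in mouse granulosa cells and oocytes. They are 5 of the 24047 genes listed in any of the 6 count tables, and of the 11794 listed in all of them. The set was chosen on measured values, because Clu was higher and Apoe lower in knockout than in wild type granulosa cells. The differences between knockout and wild type granulosa cells are therefore given for all 5 genes as a description without a test. Differences between ages were tested, in the same libraries. The study applied Smart-seq2, which amplifies whole cDNAs from little RNA, to granulosa cells, the somatic cells around the oocyte, and to oocytes from ovaries of wild type mice and of mice without estrogen receptor beta (gene Esr2), the main estrogen receptor of granulosa cells. The 93 libraries form 12 groups. At 4 weeks of age there were 7 wild type and 7 knockout granulosa libraries and 12 wild type and 7 knockout oocyte libraries. The 7 week groups held 5 wild type and 5 knockout granulosa libraries and 5 wild type and 12 knockout oocyte libraries. The 6 month groups held 12 and 6 granulosa and 11 and 4 oocyte libraries, wild type first. The labels give the genotypes only as wild type and knock-out, name no strain, animal, hormone treatment or number of cells, and do not say which part of Esr2 was deleted. A p-value here sets a difference against the variation among libraries only, part of which can be technical. Each age and cell type came as a table of its own, so that age or cell type and table cannot be told apart.

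Clusterin is a secreted chaperone glycoprotein that also travels on high density lipoprotein, and apolipoprotein E is a protein on lipoprotein particles by which cell surface receptors recognise them. Scarb1 takes cholesterol esters out of high density lipoprotein without taking in the particle, which is a main route of cholesterol supply for steroid synthesis in the rodent ovary. Lrp8 and Vldlr bind apolipoprotein E and clusterin, and are also the receptors of reelin, a secreted signal that acts through the adaptor Dab1. In the mouse genome build GRCm38 the genes lie at chr14:65968483-65981547 on the plus strand (Clu), chr7:19696109-19699188 on the minus strand (Apoe), chr5:125277087-125341094 on the minus strand (Scarb1), chr4:107802261-107876840 on the plus strand (Lrp8) and chr19:27216484-27254231 on the plus strand (Vldlr). All 5 are protein coding.

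The 250 bases before a transcription start are shown for Apoe, whose level was lower in young knockout granulosa cells, and for the reelin receptors Vldlr and Lrp8, which moved together across granulosa libraries. They come from RefSeq on GRCm38.p6 and read 5′ to 3′ on the strand of the gene. The table used held 8 such windows for 3 of the 5 genes, 3 for Apoe, 3 for Lrp8 and 2 for Vldlr. Clu and Scarb1 were not among its entries. Capitals mark AGGTCA, the core element that many nuclear receptors bind.
Apoe, chr7:19699189-19699438, minus strand: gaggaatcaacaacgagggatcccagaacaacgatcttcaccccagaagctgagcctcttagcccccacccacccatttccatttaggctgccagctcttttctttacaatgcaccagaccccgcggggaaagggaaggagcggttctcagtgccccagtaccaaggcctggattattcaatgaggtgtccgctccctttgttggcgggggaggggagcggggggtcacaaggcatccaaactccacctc
Vldlr, chr19:27216234-27216483, plus strand: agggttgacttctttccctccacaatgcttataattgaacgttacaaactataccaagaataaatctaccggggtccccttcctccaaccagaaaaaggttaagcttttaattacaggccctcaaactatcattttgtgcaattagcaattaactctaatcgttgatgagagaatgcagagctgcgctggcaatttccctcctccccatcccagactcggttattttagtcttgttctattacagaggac
Lrp8 internal start, chr4:107830703-107830952, plus strand: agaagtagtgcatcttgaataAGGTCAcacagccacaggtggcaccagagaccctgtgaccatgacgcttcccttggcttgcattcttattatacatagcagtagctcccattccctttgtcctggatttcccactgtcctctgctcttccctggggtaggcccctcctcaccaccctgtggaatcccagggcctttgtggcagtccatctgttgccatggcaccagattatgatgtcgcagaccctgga
Both strands were searched for the estrogen response element (GGTCA and TGACC, 3 bases apart), the core element AGGTCA, the NR5A site CAAGGTCA, the AP-1 site TGANTCA, the heat shock element (GAA, TTC and GAA, each 2 bases apart) and the SREBP site TCACNCCAC. The NR5A site contains the core element. Among the 8 windows only the internal Lrp8 start, 28692 bases into the gene, held any of them, a core element at -229. Over all 32851 promoter windows the core element was found in 16.3%, the AP-1 site in 7.81%, the NR5A site in 1.56%, the SREBP site in 1.24%, the heat shock element in 0.603% and the estrogen response element in 0.07%. These are matches of letters in a window of fixed length and do not show binding.

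Granulosa libraries held 702726 to 6469419 estimated counts, with 3 of 42 under 1000000, and oocyte libraries 1814958 to 7751953. Levels are given in CPM, the share of a library's total count scaled to 1000000. Esr2 ranged from 5.69 to 39.6 CPM over wild type granulosa libraries and had no count in any knockout one, which allows at most 0.118, 0.212 and 0.17 CPM per group at 4 weeks, 7 weeks and 6 months (3 counts over the group, counting error only). In wild type oocytes it ranged from 39.3 to 112 CPM, against 1, 4 and 0 counts in total in the knockout groups. All 13 granulosa markers had counts in the granulosa tables, with group medians of their sum from 3149 to 7021 CPM. In oocytes that sum had medians from 82.6 to 108 CPM, with no listed count for Fshr, Foxl2, Amh, Amhr2, Inhbb or Kctd14. The oocyte markers summed to medians from 17919 to 29148 CPM in oocytes and from 13.3 to 166 CPM in granulosa libraries, where Zp1, Zp2 and Zp3, the genes of the zona pellucida proteins, had no listed count at 6 months.

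Clu was the most strongly separated of the 5 genes between knockout and wild type granulosa libraries. At 4 weeks it ranged from 237 to 1591 CPM around a median of 593 in wild type, and from 3624 to 6789 CPM around 6219 in knockout. Every knockout library lay above every wild type one, and the ratio of the medians was 10.5. The means were 851 ± 554 CPM (SD, n = 7) in wild type and 5265 ± 1482 CPM (n = 7) in knockout, a fitted log2 difference of 2.58 ± 0.38 (SE) or 5.96-fold. In bulk samples more cells of a type and more RNA per cell cannot be told apart.

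At 7 weeks the wild type libraries held 482, 1270, 1274, 1194 and 567.96 CPM of Clu and the knockout libraries 2594, 1608, 1718, 3824 and 3344 CPM. The groups again did not overlap, although the lowest knockout library was close to the highest wild type ones, and the log2 difference was 1.35 ± 0.36. At 6 months wild type ranged from 266 to 816 CPM around 427 and knockout from 1682 to 2342 CPM around 2051, a log2 difference of 2.23 ± 0.22. The knockout group was the most even of the 6, with a mean of 2028 ± 269 CPM (SD, n = 6). Of all genes tested, 1.48%, 4.97% and 1.37% had groups that did not overlap at 4 weeks, 7 weeks and 6 months. Between ages the genotype difference of Clu was smaller at 7 weeks than at 4 weeks by 1.21 ± 0.52 and larger at 6 months than at 7 weeks by 0.84 ± 0.50 on the log2 scale, comparisons that share the 7 week libraries. The summed granulosa markers had medians of 3778 CPM (2699 to 4892) in wild type and 7021 CPM (4661 to 7822) in knockout at 4 weeks, 3765 and 4917 CPM at 7 weeks and 3149 and 3634 CPM at 6 months. Clu itself is not among those markers, and their part in its difference was not tested.

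**Figure D1:**
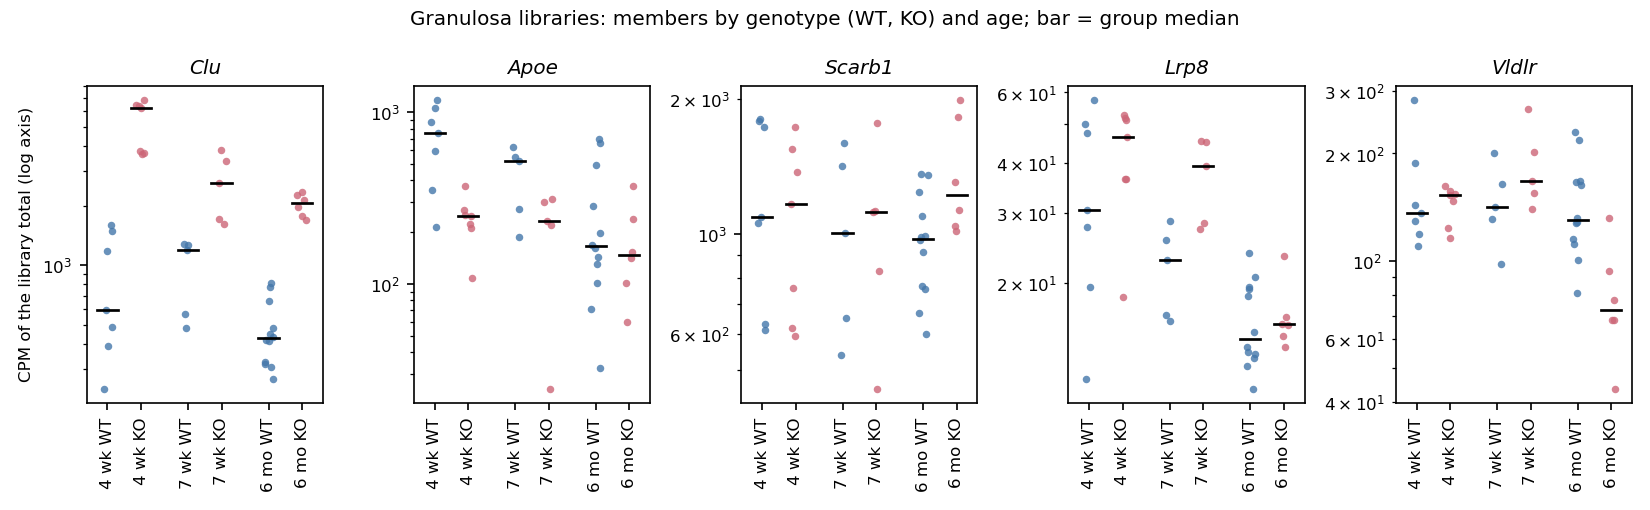
Level of the 5 genes in CPM (log axis) in each of the 42 granulosa libraries, by age and genotype; points are libraries and bars are group medians. Clu separates knockout from wild type at each age, Apoe is lower in knockout at 4 weeks with overlap, and Vldlr is lowest in 6 month knockout libraries.

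Apoe went the other way, less far and with overlap at each age. At 4 weeks it ranged from 213 to 1168 CPM around 758 in wild type and from 108 to 369 CPM around 248 in knockout. Each of the 7 knockout libraries was under the median of wild type, and the 2 lowest wild type libraries reached into the knockout range. The log2 difference was -1.63 ± 0.32, with means of 716 ± 354 CPM and 240 ± 77.7 CPM (SD, n = 7 each). At 7 weeks wild type libraries held 273, 188, 522, 548 and 622 CPM and knockout libraries 301, 24.4, 220, 312 and 233 CPM. All 5 knockout values were under the wild type median, and the log2 difference was -1.03 ± 0.49. At 6 months the ranges were 32.3 to 694 CPM around 166 and 59.8 to 370 CPM around 147, so that the knockout range lay inside the wild type one. The log2 difference there was -0.42 ± 0.61.

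Macrophages express Apoe, and the summed immune markers (14 genes, all with counts, among them Ptprc, Lyz2 and C1qb) moved with it. Their median was 930 CPM (442 to 2090) in wild type and 426 CPM (284 to 664) in knockout at 4 weeks, 1152 CPM (364 to 3149) and 442 CPM (290 to 3615) at 7 weeks, and 936 CPM (227 to 4636) and 617 CPM (233 to 1101) at 6 months. Across the 42 granulosa libraries, after subtraction of group means, Apoe correlated with that sum at r = 0.629, as a description. The knockout library with the highest sum, 3615 CPM at 7 weeks, held 301 CPM of Apoe. With the immune sum as a covariate, a setting added after seeing the data, the Apoe difference was -1.24 ± 0.41 at 4 weeks and -0.99 ± 0.51 at 7 weeks, and turned direction at 6 months, to 0.68 ± 0.24. Clu correlated with the immune sum at r = -0.276 and had log2 differences of 2.22 ± 0.51, 1.31 ± 0.36 and 2.15 ± 0.22 with the same covariate. The part of immune cells in the Apoe differences was not tested.

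**Figure D2:**
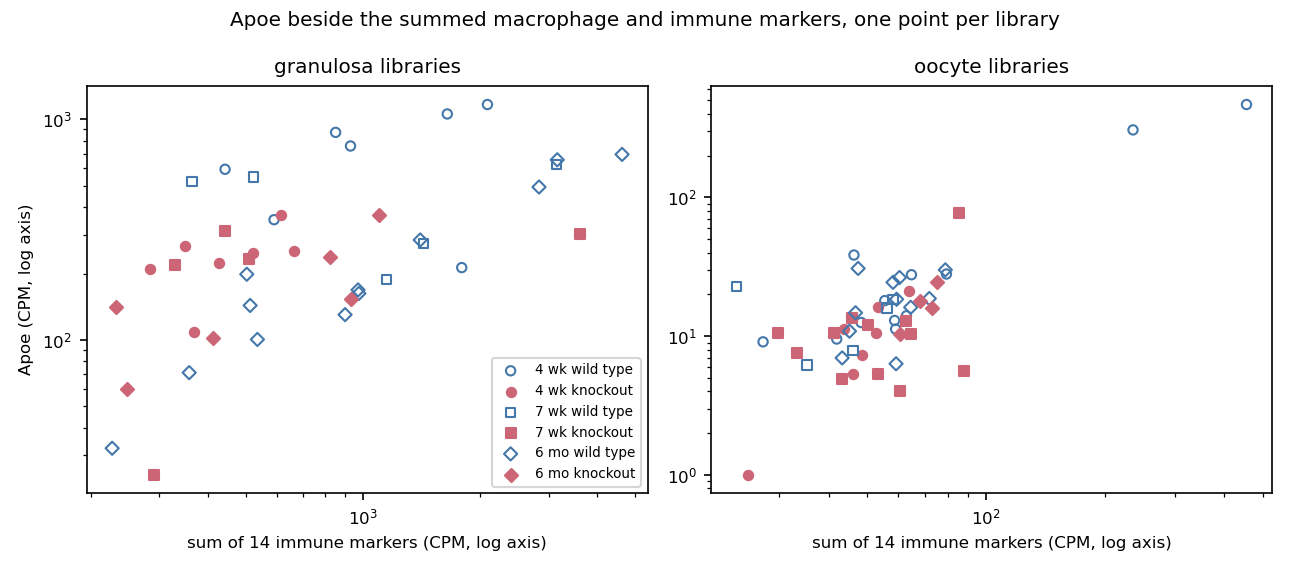
Apoe against the sum of the 14 immune markers, both in CPM on log axes, 1 point per library, granulosa on the left and oocytes on the right. Wild type oocyte libraries 2 and 9 of the 4 week group stand apart at the upper right with 307 and 467 CPM of Apoe.

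The receptors differed less between genotypes in granulosa cells, and each in its own way. Scarb1 groups overlapped widely at the younger ages, with medians of 1092 CPM in wild type and 1166 CPM in knockout at 4 weeks and a log2 difference of -0.23 ± 0.31. At 7 weeks its wild type libraries held 539, 1005, 1596, 1419 and 651 CPM and its knockout libraries 454, 828, 1127, 1767 and 1119 CPM, so that the knockout group held both the lowest and the highest library, with a log2 difference of -0.05 ± 0.38. At 6 months wild type ranged from 602 to 1362 CPM around 979, and knockout from 1019 to 1985 CPM around 1222. All 6 knockout libraries were above the wild type median, with overlap, and the log2 difference was 0.63 ± 0.20. Lrp8, the scarcest of the set, had medians of 30.5 and 46.3 CPM at 4 weeks and 14.5 and 15.8 CPM at 6 months, with log2 differences of 0.24 ± 0.29 and 0.19 ± 0.19. At 7 weeks its wild type libraries held 25.6, 16.1, 22.9, 16.6 and 28.7 CPM and its knockout libraries 39.2, 45.4, 45.2, 28.2 and 27.3 CPM, a log2 difference of 0.68 ± 0.27. All 5 knockout libraries were above the wild type median there, and the 2 lowest of them lay under the highest wild type one.

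Vldlr, which takes up triglyceride-rich particles and binds reelin, overlapped between genotypes at 4 weeks, with medians of 136 and 153 CPM and a log2 difference of -0.17 ± 0.20. At 7 weeks the wild type libraries held 201, 97.9, 130, 141 and 165 CPM and the knockout libraries 267, 202, 140, 155 and 167 CPM, a log2 difference of 0.28 ± 0.24. The 2 highest libraries were knockout and the 2 lowest wild type, with overlap between. At 6 months wild type ranged from 81.3 to 230 CPM around 130, and knockout from 43.5 to 132 CPM around 72.7, a log2 difference of -0.73 ± 0.19. Of the 6 knockout libraries 5 were under the median of wild type and 4 under its lowest library. The genotype difference of Vldlr was lower at 6 months than at 7 weeks by 1.01 ± 0.30 on the log2 scale, and that of Scarb1 was higher at 6 months than at 4 weeks by 0.85 ± 0.41.

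**Figure D3:**
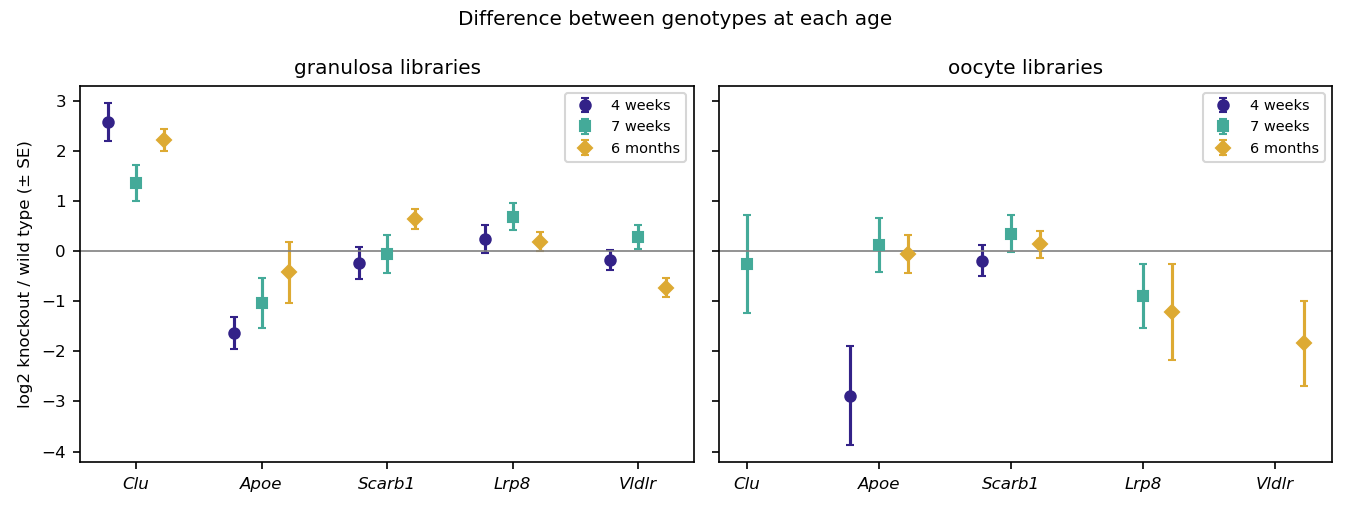
Fitted log2 ratio of knockout over wild type with its SE for each gene and age, granulosa libraries on the left and oocyte libraries on the right; genes too scarce to be fitted have no point. In granulosa cells Clu stands at 2.58, 1.35 and 2.23, while the receptors lie between -0.73 and 0.68.

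Ordered by median over the 12 groups, Clu was highest in 4 week knockout granulosa cells, followed by 7 week and 6 month knockout, which did not differ beyond their pooled SD, then by the 3 wild type granulosa groups, whose neighbours did not differ beyond it either, and by oocytes. Apoe was highest in 4 week and then 7 week wild type granulosa cells, each above the next group by more than the SD. For the first the means lay 286 CPM apart against an SD of 283 CPM, and that age difference did not pass (edgeR adjusted p = 0.728). The other 4 granulosa groups could not be ordered for Apoe. Scarb1 had no neighbours beyond the SD among granulosa groups. Among granulosa groups Lrp8 was highest in the 3 groups of 4 week knockout, 7 week knockout and 4 week wild type, which could not be ordered, and lowest in the 6 month groups. Vldlr was highest in 7 week and, among granulosa groups, lowest in 6 month knockout, each apart from its granulosa neighbour by more than the SD. The means of 7 and 4 week knockout lay 41.7 CPM apart against an SD of 38.2 CPM, and that age difference did not pass (edgeR adjusted p = 0.644). Lrp8 and Vldlr were lower still in every oocyte group. Scaled to the length of the merged exons, which allows levels of different genes to be compared, the median order in 4 week wild type granulosa cells was Apoe at 354 CPM per kb, Clu at 173, Scarb1 at 128, Vldlr at 13.5 and Lrp8 at 2.90. In 4 week knockout it was Clu at 1809 CPM per kb, Scarb1 at 137, Apoe at 116, Vldlr at 15.2 and Lrp8 at 4.41. The log2 ratio of Clu to Apoe CPM within a library, not scaled to length, had a median of 0.48 over the wild type and 4.66 over the knockout group at 4 weeks. Its medians were 1.12 and 3.61 in the 7 week groups and 1.10 and 3.73 in the 6 month groups.

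Clu and Scarb1 varied together among granulosa libraries of the same group. Over 42 libraries, on log2(CPM + 1) with group means removed, Pearson's r was 0.678 and Spearman's rho 0.690 (permutation p = 2e-05 for each from 100000 resamples, adjusted p = 2e-04 over the 10 pairs of genes). Without the 2 libraries farthest from the Clu median r was 0.638. Within groups r was 0.952 in 4 week wild type, 0.932 in 4 week knockout, 0.232 in 6 month wild type and 0.578 in 6 month knockout, and the 7 week groups of 5 were too small. Both genes also followed the summed granulosa markers, at r = 0.622 for Clu and 0.680 for Scarb1, and the summed luteal markers, at 0.691 and 0.662. With the log2 library total the correlation was 0.330 for Clu and 0.455 for Scarb1. The part of these in the relation was not tested.

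**Figure D4:**
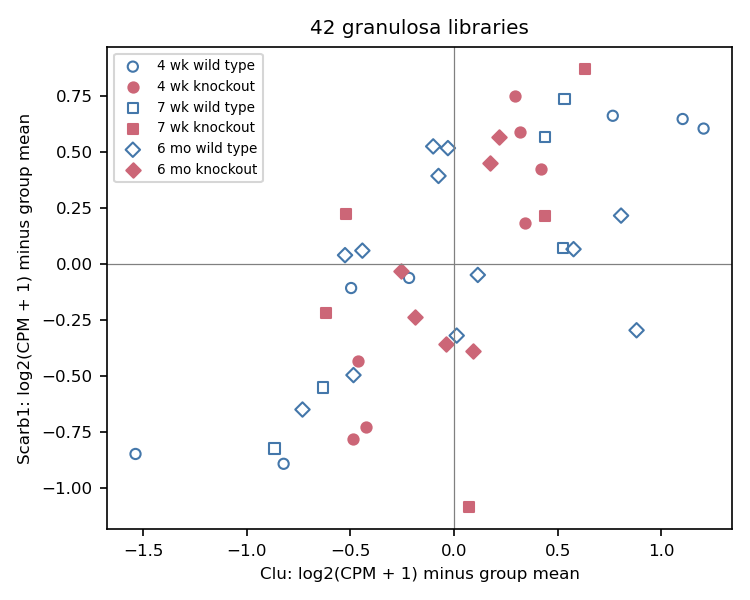
Clu against Scarb1 in the 42 granulosa libraries, each as log2(CPM + 1) minus the mean of its group; symbols give age and genotype. Libraries high in Clu for their group tend to be high in Scarb1 (r = 0.678), most evenly at 4 weeks.

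Scarb1 and Vldlr went in opposite directions, with r = -0.502 and rho = -0.472 (permutation test, adjusted p = 0.00295 and 0.0120). Without the 2 farthest libraries r was -0.401, and within the 4 groups of 6 or more it was -0.248, -0.695, -0.521 and -0.648 (4 week wild type, 4 week knockout, 6 month wild type, 6 month knockout). The reelin receptors Lrp8 and Vldlr were positively related at r = 0.391 and rho = 0.426 (permutation test, adjusted p = 0.0435 and 0.0297), with 0.404 without the 2 farthest and 0.487, 0.626, 0.443 and 0.0685 within groups in the same order. Vldlr correlated with the library total at -0.399 and both receptors with the summed endothelial markers, Lrp8 at 0.541 and Vldlr at 0.504. Of the 8 endothelial markers Tek and Emcn had no listed count in granulosa cells, nor had Vwf and Flt1 at 6 months. Apoe and Scarb1 passed by rank only, with rho = 0.380 and r = 0.335 (permutation test, adjusted p = 0.0365 and 0.0856), 0.390 without the 2 farthest and 0.559, 0.573, 0.246 and 0.809 within groups in the same order. No relation of Clu and Apoe was detectable, with r = 0.0644 and rho = 0.117 (permutation p = 0.696 and 0.487, adjusted p = 0.773 and 0.541), and 0.0686 without the 2 farthest. Within groups their r was 0.407, 0.524, -0.573 and 0.689 in the same order.

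By correlation of log2(CPM + 1) over all 42 granulosa libraries, among 8706 genes with a mean of at least 5 CPM, the profiles most like that of Clu were Grb14 (r = 0.919), Agt (0.878), the angiotensinogen gene, and Tdrd5 (0.865). The most opposite were Ate1 (-0.910), Rusc1 (-0.831) and Ero1l (-0.829). These correlations include the genotype difference that chose Clu. For Apoe the nearest were the leukocyte gene Laptm5 (0.741), the complement gene C1qb (0.734) and Aifm2 (0.699), 2 of them on the immune marker list. Scarb1 was nearest to Tmem115 (0.865), Nucb1 (0.852) and Nagpa (0.852), and Lrp8 to Dot1l (0.842), Ptprd (0.837) and Zzef1 (0.825). Vldlr was nearest to Pdk1 (0.899), a kinase that restrains pyruvate entry into the mitochondrial cycle, Ctnna1 (0.879) and Cpt1a (0.869), the gatekeeper of mitochondrial fatty acid oxidation. The most opposite profiles were Azin1 (-0.683), Chp1 (-0.668) and Jam2 (-0.662) for Apoe, Rab2a (-0.834), Rap1b (-0.830) and Rfxap (-0.821) for Scarb1, Serpine2 (-0.811), Casp6 (-0.797) and Prkar1a (-0.793) for Lrp8, and Arpc1b (-0.780), Eif5a (-0.747) and Tnfrsf12a (-0.729) for Vldlr. All points of these correlations share the depth and cell composition of their library.

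With age, Lrp8 was lower at 6 months in both genotypes, and Clu and Vldlr in knockout, with no call between 4 and 7 weeks. In wild type granulosa cells Lrp8 fell between 4 weeks and 6 months by 0.99 ± 0.20 on the log2 scale (edgeR quasi-likelihood test, adjusted p = 0.00194). Its 4 week libraries ranged from 11.5 to 57.3 CPM and its 6 month libraries from 10.9 to 23.8 CPM, so that the groups overlapped at the low end. It was the only one of the 5 to pass in wild type, where 0%, 1.36% and 8% of all genes passed for 7 weeks against 4 weeks, 6 months against 7 weeks and 6 months against 4 weeks. The count of 0 at 7 weeks against 4 weeks compares with 1357 genes at an unadjusted p under 0.05 and 1 gene called by DESeq2 and 0 by limma voom. Apoe, at -1.34 ± 0.45 (edgeR adjusted p = 0.0593), and Clu, at -0.77 ± 0.29 (0.0899), did not pass between 4 weeks and 6 months. Apoe passed under 3 other settings (DESeq2, adjusted p = 0.0276; limma voom, 0.0256; scaling to the total only, 0.0312) and Clu under 1 (scaling to the total only, 0.0367).

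In knockout granulosa cells 3 of the 5 genes were lower at 6 months than at 4 weeks, where 13.8% of all genes passed. Clu fell by 1.13 ± 0.35 (edgeR adjusted p = 0.0274), from a range of 3624 to 6789 CPM at 4 weeks to 1682 to 2342 CPM at 6 months. Because Clu was chosen for high values in knockout granulosa cells, this p-value is not independent of that choice. Lrp8 fell by 1.06 ± 0.25 (adjusted p = 0.0033) and Vldlr by 0.64 ± 0.21 (adjusted p = 0.0350). Between 7 weeks and 6 months, where 22% of genes passed, Vldlr fell by 0.97 ± 0.23 (adjusted p = 0.00325) and Lrp8 by 0.86 ± 0.27 (adjusted p = 0.0202). The Vldlr libraries ranged from 140 to 267 CPM at 7 weeks and from 43.5 to 132 CPM at 6 months. The Lrp8 call was lost with limma voom (adjusted p = 0.0741) and without 7 week knockout library 2 (0.0590) or 3 (0.0643), and Scarb1, at 0.65 ± 0.35 (0.171), passed without 7 week knockout library 4 (0.0497). None of the 5 passed between 4 and 7 weeks, where 0.0419% of genes did. These age comparisons share libraries with one another and with the genotype comparisons above. The set was chosen on those genotype comparisons, so the p-values with age in granulosa cells are not independent of the choice.

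Other genes of lipoprotein handling were read from 6 lists of 121 genes, with adjusted p over all tested genes. The lists were chosen with earlier results of these data known. The p-values of listed genes, here and below, are therefore not independent of that choice. In knockout against wild type granulosa cells 2.33% of all genes passed at 4 weeks, 0.8% at 7 weeks and 12.6% at 6 months. Of the apolipoprotein and lipoprotein remodelling genes 11 of 22 could be tested at 4 weeks, where 1 rose and 2 fell and the median log2 difference was -0.45 against -0.02 over all genes. Apoa1, the main protein of high density lipoprotein, rose by 1.49 ± 0.29 (edgeR adjusted p = 0.00436). Apoc1, which lies next to Apoe, fell by 3.68 ± 0.65 (0.00214), and Lpl, the lipase that releases fatty acids from lipoproteins, fell by 1.06 ± 0.26 (0.0261). Of 18 tested genes of cholesterol storage and transport 3 fell and none rose at 4 weeks (median -0.29): the lipid droplet protein Plin5 by 2.78 ± 0.40 (0.000307), the side-chain cleavage enzyme Cyp11a1 by 1.58 ± 0.35 (0.0136) and the cholesterol esterifying enzyme Soat1 by 0.90 ± 0.22 (0.0313). In the list of other lipoprotein receptors, reelin and receptor partners 1 of 20 tested genes rose and none fell (median -0.01), and the large endocytic receptor Lrp1 was not called (0.00 ± 0.32, 0.999). The farnesyl diphosphate synthase gene Fdps fell by 0.99 ± 0.20 (0.00747), alone among 25 tested cholesterol synthesis genes (median -0.01). None of 6 tested scavenger receptor genes (median -0.13) and none of 15 apoptosis and survival genes (median -0.15) passed. The summed luteal markers, all 10 with counts, had medians of 14930 CPM (8138 to 21943) in wild type and 8895 CPM (6838 to 9913) in knockout at 4 weeks, 18305 and 8612 CPM at 7 weeks and 9375 and 10538 CPM at 6 months. Their part in these differences was not tested.

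At 7 weeks 3 of the listed genes passed, with Plin2 lower by 1.23 ± 0.25 (edgeR adjusted p = 0.0386), the oxysterol binding protein gene Osbp higher by 1.46 ± 0.28 (0.0263) and Fdps lower by 1.05 ± 0.22 (0.0419). At 6 months 4 of 26 synthesis genes rose and none fell (median 0.38 against -0.02 over all genes), namely Hsd17b7, Fdft1, Insig1 and Dhcr7, by 0.90 to 1.05. Of 19 tested storage and transport genes 3 rose and 1 fell (median 0.36). Star, which carries cholesterol to the inner mitochondrial membrane, rose by 0.92 ± 0.24 (0.0187), the cholesterol ester hydrolase genes Lipe and Nceh1 by 1.07 ± 0.24 (0.00671) and 0.93 ± 0.20 (0.00549), and Soat1 fell by 0.51 ± 0.14 (0.0201). Of 10 tested apolipoprotein and remodelling genes (median -0.58) the endothelial lipase gene Lipg fell by 1.29 ± 0.20 (0.00022), the cholesterol exporter Abca1 by 0.75 ± 0.23 (0.0352), and Mttp rose by 0.87 ± 0.25 (0.0267). In the receptor list 2 of 19 tested genes rose and 1 fell (median -0.27). Lrpap1, a chaperone of these receptors, rose by 0.78 ± 0.16 (0.00327), and Lrp10 fell by 0.42 ± 0.13 (0.0358). The scavenger receptor gene Olr1 fell by 1.14 ± 0.34 (0.0298), 1 of 7 tested, and Bcl2l11, a death-promoting BCL2 relative, fell by 1.15 ± 0.25 (0.00487), 1 of 16 tested apoptosis genes.

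Between 4 weeks and 6 months 14 of 26 synthesis genes rose, 1 fell and 11 did not pass in wild type granulosa cells (median log2 difference 0.89 against -0.03 over all genes, of which 8% passed). In knockout 19 rose, none fell and 7 did not pass (1.55 against -0.06 over all genes, of which 13.8% passed). Between 4 and 7 weeks none of the 26 passed in either genotype. Cyp51 rose by 1.92 ± 0.31 (edgeR adjusted p = 9.6e-05) in wild type, and Fdps by 2.10 ± 0.21 (2.36e-09) in knockout. Lrp1 fell by 1.17 ± 0.28 (0.00662) in wild type and 1.07 ± 0.34 (0.0306) in knockout. Star rose by 1.16 ± 0.29 (0.0105) and 2.54 ± 0.34 (1.92e-06) in the same genotypes. In wild type Apoc1 fell by 2.78 ± 0.64 (0.00488) and Lpl by 1.66 ± 0.26 (5.81e-05).

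Oocyte libraries held far smaller shares of all 5 transcripts. Scarb1 had medians of 91.1 and 76.9 CPM in wild type and knockout at 4 weeks, 56.8 and 70.3 CPM at 7 weeks, and 54.8 and 59.4 CPM at 6 months. Per length Scarb1 was above Apoe in 3 of the 6 oocyte groups and under it in 3. At 4 weeks in wild type the medians were 10.7 CPM per kb for Scarb1 and 7.50 for Apoe, and at 6 months in wild type 6.45 and 8.63. Apoe medians were 16.0 and 10.6 CPM at 4 weeks, 16.0 and 10.4 CPM at 7 weeks, and 18.5 and 16.9 CPM at 6 months. Clu medians lay between 0.194 and 1.42 CPM, and 5 of 12 wild type libraries at 4 weeks had no count. Lrp8 medians lay between 0.455 and 3.42 CPM and Vldlr medians between 0.316 and 2.50 CPM, levels of a few counts per library. For none of the 5 genes did a neighbour in the order of the 6 oocyte groups lie beyond the pooled SD. The highest Clu value in an oocyte library, 14.4 CPM in 7 week wild type library 2, stood with the highest granulosa marker sum in its group, 429 CPM against 82 to 104 CPM in the others. Of that sum 299 CPM came from the inhibin gene Inha alone. In that group 7 of the 13 granulosa markers had counts, and Fshr, Foxl2, Amh, Amhr2, Inhbb and Kctd14 had none listed. Over 51 oocyte libraries Clu correlated with the granulosa marker sum at r = 0.699, as a description with group means removed.

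**Figure D5:**
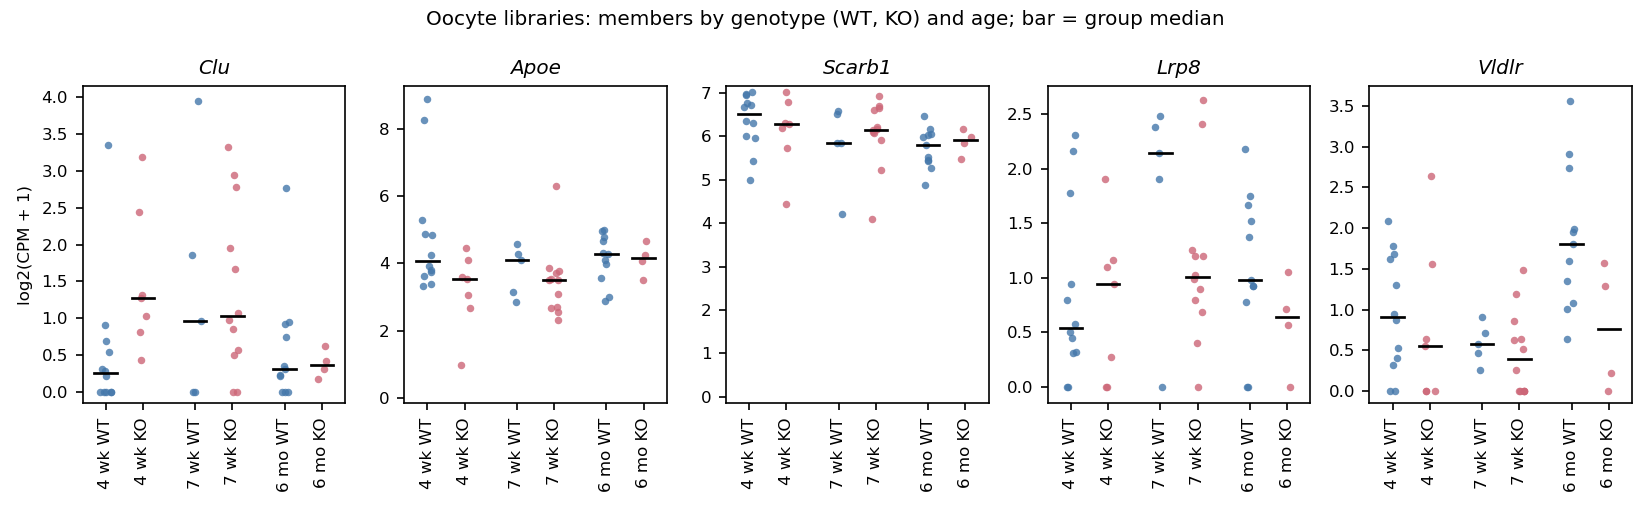
Level of the 5 genes as log2(CPM + 1) in each of the 51 oocyte libraries, by age and genotype; points are libraries and bars are group medians. Scarb1 and Apoe are detected throughout, Clu, Lrp8 and Vldlr lie near 0, and 2 wild type libraries at 4 weeks stand apart in Apoe.

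None of the 5 genes passed between knockout and wild type oocytes. Of them 2, 4 and 4 were abundant enough to be tested at 4 weeks, 7 weeks and 6 months, where 0.00924%, 0.154% and 0.00818% of all genes passed. At 4 weeks Apoe ranged from 9.11 to 467 CPM around 16.0 in wild type and from 1.00 to 21.1 CPM around 10.6 in knockout. Wild type libraries 2 and 9, at 307 and 467 CPM, stood apart from the other 10, which held 9.11 to 38.5 CPM and overlapped with knockout. The fitted log2 difference was -2.88 ± 0.99 (edgeR unadjusted p = 0.00939, adjusted p = 0.998). The same 2 libraries had the highest immune marker sums among 4 week oocytes, 235 and 455 CPM, with 103 and 337 CPM of the lysozyme gene Lyz2, 60.7 and 49.8 CPM of C1qb and 23.0 and 16.5 CPM of Cd68. In the oocyte table of that age 6 of the 14 immune markers had counts, and Ptprc, Adgre1, C1qa, C1qc, Tyrobp, Fcer1g, Cd52 and Cd14 had none listed. Without those 2 libraries, left out after seeing the data, the Apoe difference was -0.81 ± 0.43 (adjusted p = 0.992). Over all 51 oocyte libraries Apoe correlated with the immune sum at r = 0.744 with group means removed, and its nearest profile among 7209 genes was C1qb (r = 0.677). The part of immune cell RNA in these Apoe values was not tested.

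The remaining oocyte differences did not pass either. Scarb1 at 7 weeks held 17.6, 56.3, 56.8, 95.3 and 91.0 CPM in wild type and ranged from 16.0 to 120 CPM around 70.3 in knockout, so that the groups overlapped over nearly their whole range. It differed by -0.19 ± 0.31 at 4 weeks (edgeR adjusted p = 0.998), 0.35 ± 0.36 at 7 weeks (0.624) and 0.14 ± 0.27 at 6 months (0.999). Apoe differed by 0.12 ± 0.54 at 7 weeks (0.922), where knockout library 2 held 77.3 CPM and the others at most 13.6, and by -0.06 ± 0.38 at 6 months (0.999). Clu differed by -0.26 ± 0.98 at 7 weeks (0.910), and by 1.49 ± 0.88 with the granulosa marker sum as a covariate, a setting added after seeing the data. Lrp8 at 7 weeks held 0, 2.74, 3.42, 4.61 and 4.22 CPM in wild type and 0 to 5.18 CPM around 1.01 in knockout, with overlap. Lrp8 differed by -0.90 ± 0.64 at 7 weeks (0.464) and -1.21 ± 0.96 at 6 months (0.999). Vldlr at 6 months, with 0.558 to 10.9 CPM in wild type and 0 to 1.97 CPM in knockout, differed by -1.84 ± 0.85 (unadjusted p = 0.0422, edgeR adjusted p = 0.999). None of the 5 passed a test of the genotype difference between ages in oocytes, where edgeR called 0%, 0% and 0% of genes for 7 weeks against 4 weeks, 6 months against 7 weeks and 6 months against 4 weeks. Unadjusted p was under 0.05 for 1526, 409 and 397 genes, DESeq2 called 12, 0 and 0 and limma voom 0, 0 and 1. The difference of Apoe was 3.02 ± 1.06 between 4 and 7 weeks (edgeR adjusted p = 0.337) and 0.92 ± 0.68 without the 2 libraries named above. Of the listed genes only Cyp11a1 passed in oocytes, at 7 weeks, where it fell by 4.14 ± 0.61 in knockout (edgeR adjusted p = 0.0039), with luteal marker sums of 334 CPM in wild type and 175 CPM in knockout (medians, 7 of 10 markers with counts, Lhcgr, Ptgfr and Oxtr with none listed).

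With age in wild type oocytes 0.824% of genes passed between 4 and 7 weeks, 25.7% between 7 weeks and 6 months and 15.4% between 4 weeks and 6 months. Apoe was lower at 6 months than at 4 weeks by 2.02 ± 0.59 (edgeR adjusted p = 0.0139), but the medians were 16.0 and 18.5 CPM. Without libraries 2 and 9 the difference was 0.05 ± 0.40 (adjusted p = 0.950), and with limma voom it was -0.63 (adjusted p = 0.367). Between 4 and 7 weeks the Apoe difference was -2.63 ± 0.84 (edgeR adjusted p = 0.0720; DESeq2 adjusted p = 0.0108) and without those libraries -0.56 ± 0.51. Vldlr rose between 7 weeks and 6 months by 2.85 ± 1.02 (edgeR adjusted p = 0.0335). It had 10 counts in total at 7 weeks and 180 at 6 months in wild type. Vldlr passed the filter on low counts at 6 months but not at 4 or 7 weeks alone. Its test here therefore depends on the group where it was higher, and the p-value is not independent of that. Its 5 libraries at 7 weeks held 0.878, 0.498, 0.640, 0.201 and 0.384 CPM, and its 6 month libraries ranged from 0.558 to 10.9 CPM around 2.50, with overlap. The call was lost without any 1 of the 5 libraries at 7 weeks (adjusted p = 0.0566 to 0.0775) and with scaling to the total only (0.0516). In knockout oocytes 0.0223%, 5.81% and 2.27% of genes passed for the same 3 pairs of ages, and none of the 5 did.

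Among oocyte libraries Apoe and Vldlr were negatively related over 51 libraries, with r = -0.416 and rho = -0.382 (permutation test, adjusted p = 0.0277 and 0.0650). Without the 2 farthest libraries r was -0.364, and within groups of 6 or more it was -0.462 in 4 week wild type, -0.618 in 4 week knockout, -0.640 in 6 month wild type and -0.128 in 7 week knockout. Vldlr levels rest on few counts, and the other 9 pairs of genes gave adjusted p of at least 0.178 for r. Scarb1 followed the oocyte marker sum (r = 0.712) and the library total (r = 0.518), and its nearest profiles were Farsa (0.867), Hsf1 (0.864) and Map2k1 (0.858).

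Granulosa libraries had larger shares of all 5 transcripts than oocyte libraries in each of the 6 comparisons at equal age and genotype. Clu, Lrp8 and Vldlr were too scarce to be tested in oocytes alone at some ages. They passed the filter on low counts here through the granulosa libraries, where they are high, so their differences are given as a description. Of all genes 81.1%, 74.4% and 83.6% differed in wild type at 4 weeks, 7 weeks and 6 months, and 79.7%, 78.9% and 74.8% in knockout. The scaling assumes that most genes do not differ, which does not hold here, so the sizes depend on the scale. Shares of a library are not amounts per cell. The log2 difference of Clu was from 7.86 ± 1.00 (7 week wild type) to 12.14 ± 1.37 (6 month knockout), and that of Vldlr from 5.01 ± 0.38 to 7.85 ± 0.48 (7 week knockout). The upper ends rest on 7 counts of Clu and 27 of Vldlr in total in those oocyte groups. Their sizes, and those of Lrp8, are therefore limited by few oocyte counts. Scarb1 was higher in granulosa cells by 3.29 ± 0.38 to 4.12 ± 0.51, Lrp8 by 2.48 ± 0.61 to 5.02 ± 0.59 and Apoe by 2.67 ± 0.56 to 4.63 ± 0.89. The lowest Apoe value, 2.67 in 4 week wild type, rests on oocyte libraries 2 and 9 named above: it was 3.06 ± 0.57 without library 2, 3.53 ± 0.55 without library 9 and 4.69 ± 0.51 without both, settings added after seeing the data. Apoe and Scarb1 were tested in oocytes alone at each age. The least certain of their differences, Apoe in 6 month knockout, had an edgeR adjusted p of 0.00217. The ligand and adaptor of the reelin route lay on the other side: the log2 difference of granulosa cells over oocytes was -2.61 ± 0.45 for Reln and -6.77 ± 0.60 for Dab1 in 4 week wild type (edgeR adjusted p = 1.93e-07 and 2.84e-18), and both were higher in oocytes in all 6 comparisons. Of the 23 tested genes of the receptor list 10 were higher in granulosa cells and 10 in oocytes at 4 weeks in wild type (median log2 difference 0.11 against 0.24 over all genes). Of 24 synthesis genes 15 were higher in granulosa cells and 4 in oocytes (median 1.90).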

How the data were processed

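RNA of 93 mouse libraries, 42 of granulosa cells and 51 of oocytes, was measured with Smart-seq2, per the labels' protocols. The miRNA sequencing that the protocol also names was not analysed here. The deposited tables hold expected counts (estimated counts, not whole numbers) per gene, made by the authors and not normalised. The authors also deposited signal values, counts divided by 1 size factor per library, used only in 1 alternative. The submitters' processing notes name STAR, Partek, DESeq2 and mm10, with no versions, and the annotation is not given in the sources used here. Libraries were grouped by their titles. Among 7 week oocytes 1 knockout column carries 2 sample numbers at once. It was kept in its group without a number, and may be more than 1 sample. A gene with a maximum below 1.00281 counts has no row in any table, so a gene called without a listed count may have been filtered.

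Counts were rounded, low genes were removed (filterByExpr), TMM set the scale, and tests used edgeR 4.0.16 (quasi-likelihood F test, robust) in R 4.3.3, within each table for genotype and over joined tables for age and cell type. Benjamini-Hochberg adjustment ran over every gene in a fit, with 0.05 as the threshold. SE is the log2 difference divided by the root of F. Alternatives used DESeq2 1.42.0 and limma 3.58.1. The scripts were tested on simulated data. Correlations used numpy 2.4.6 and scipy 1.17.1, with 100000 resamples. Gene positions and exon lengths are from GENCODE vM21. Members and gene lists were chosen with earlier results of these data known. Named genes were the 5 members, Esr2, up to 5 listed genes per list and comparison by smallest p among those past the threshold, a few fixed genes such as Lrp1, Reln, Dab1, Abca1, Apoa1 and Star, and the 3 genes most like and most opposite to each member by correlation. Granulosa and other markers named beside a result, such as Inha, Lyz2, C1qb and Cd68, were picked from the marker lists after their values were seen. Same-numbered libraries of both genotypes deviated together in each pair only in 7 week oocytes (correlations 0.543, 0.118, 0.154 and 0.243), where the numbers were taken as pairs from this hint in the data. There the fit with a replicate block on the 4 pairs called 38 genes, against 1 in the same libraries without the block and 18 in all libraries, and no member passed in any of these fits. Some genes that the rule names are not reported here.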

Additional observations from a re-analysis of the deposited data

Results flagged for a closer look

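Of 40 groups of 4 to 10 libraries tested over the 5 genes, 3 held a library whose gap to the nearest other was large for the group's range. For values that follow a normal distribution chance flags about 1 in 20 groups. Values in CPM near 0 need not follow it, and the rate for these libraries was not computed. Clu in 7 week wild type oocyte library 2 was 14.4 CPM, against 0 to 2.63 CPM in the other 4. Lrp8 in 6 month knockout granulosa library 3 was 23.4 CPM, against 13.9 to 16.5 CPM in the other 5. Vldlr in 4 week knockout oocyte library 4 was 5.26 CPM, against 0 to 1.96 CPM in the other 6.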

How the results depend on the processing

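All alternatives to the edgeR fit concern counts of called genes unless a gene is named, and the cause of each change was not tested. DESeq2 called 559 genes in place of 283 between genotypes in 4 week granulosa cells, 563 in place of 96 at 7 weeks, and 238 in place of 18 in 7 week oocytes. With age DESeq2 called 1 in place of 0 (wild type granulosa, 7 against 4 weeks), 364 in place of 194 (6 months against 7 weeks), 40 in place of 6 (knockout granulosa, 7 against 4 weeks), 1115 in place of 111 (wild type oocytes, 7 against 4 weeks), and in knockout oocytes 30, 1554 and 672 in place of 3, 782 and 306 (7 against 4 weeks, 6 months against 7 weeks, 6 months against 4 weeks). It called 12 in place of 0 for the oocyte genotype difference between 4 and 7 weeks. Limma voom called 1 in 7 week oocytes, 1 and 7 in knockout granulosa cells and oocytes between 4 and 7 weeks, 215 in wild type oocytes between those ages, and 1 for the oocyte genotype difference between 4 weeks and 6 months. In 7 week oocytes 30 were called without a filter, 30 with the total as scale and 1 from the deposited normalised values. Settings added after seeing the data gave 1 there with libraries numbered in both groups. They also gave 358 there with a granulosa marker covariate and 11 with an immune marker covariate. In wild type oocytes between 4 and 7 weeks the total as scale gave 51. Without libraries under 1000000 counts 42 were called in 7 week granulosa cells. Settings added after seeing the data also gave 91 with the immune covariate in 4 week granulosa cells. For wild type oocytes between 4 and 7 weeks such a setting, without the 2 libraries of highest immune sum, gave 30. Leaving out 1 library at a time gave 36 to 209 in 7 week and 926 to 2057 in 6 month granulosa cells, 2 to 296 in 7 week oocytes, 1 to 7 and 1563 to 3486 in knockout granulosa cells (7 against 4 weeks, 6 months against 7 weeks), 82 to 333 in wild type granulosa cells (6 months against 7 weeks), 231 to 695 and 62 to 256 in knockout oocytes (6 months against 7 and against 4 weeks), and 0 to 520 and 1933 to 3506 in wild type oocytes (7 against 4 weeks, 6 months against 7 weeks). The log2 difference of Apoe between 6 months and 4 weeks in wild type oocytes turned to 0.0527 without the 2 libraries of highest immune sum.

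With the replicate block, genotype comparisons called 245 genes in 4 week, 129 in 7 week and 645 in 6 month granulosa cells, and 38 in 7 week oocytes, of which 10 were among the 18 called in all libraries. Where libraries without a partner had to be left out, the same libraries without the block gave 1062 at 6 months (1580 with all libraries) and 1 in 7 week oocytes. That setting without the block was added after seeing the data. The block gave log2 differences of 2.82, 1.42 and 2.61 for Clu and -1.51, -1.28 and -1.06 for Apoe in granulosa cells at 4 weeks, 7 weeks and 6 months. By the labels the libraries share only a number in every comparison. The pairs in 7 week oocytes rest only on the correlations in these same data given above. Low counts limit Clu, Lrp8 and Vldlr in oocytes.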
